A study of Drosophila melanogaster with 2 samples.

Results

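Dense clusters of CG3407 peaks outside promoters were described here as 255 loci that together hold 722 peak summits. The loci were chosen by the positions of the peaks themselves. Summits of the 4089 peaks in the IDR list were chained along each chromosome arm wherever neighbours lay at most 5 kb apart. The IDR list holds peaks picked by the irreproducible discovery rate, which compares their order between replicates. A chain was kept when it had at least 3 summits in at least 2 different intervals, which could overlap. The members are the summits of the kept chains that lay more than 500 bp from every annotated transcription start site (TSS). They make up 17.7% of all 4089 summits and 30.4% of the 2374 summits away from promoters. Because closeness to other peaks chose the members, spacing, span and number per locus are given below as a description.

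The peaks come from chromatin immunoprecipitation with sequencing (ChIP-seq) in whole Drosophila melanogaster embryos, aged 0-14 hours and pooled over both sexes, of a transgenic line that stably carries CG3407 with green fluorescent protein (GFP) fused to its C terminus. The 2 biological replicates form 1 group and there is no group without the tagged protein, so members were set beside other peaks of the same list, lower candidates of the same libraries and windows along the genome. Whole embryos mix all tissues and many stages, and the peaks do not tell in which cells or at which time a site was occupied. The labels describe the libraries both as an input control and as a transcription factor ChIP; they were read as ChIP, because the peak lists were made from these libraries against 1 separate control.

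CG3407 encodes a zinc finger protein. Regulatory DNA in Drosophila is often spread over several enhancers in the introns and flanks of a gene, so that neighbouring elements drive the gene in different tissues. Genes with many such elements are typically developmental regulators and signalling genes, and some highly occupied stretches are bound by many unrelated factors. Peaks in the list were reported with a score from the peak caller, used here to rank summits within the list, with rank 1 the highest.

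Many of the highest-scoring summits away from promoters had a short sequence that most members lacked. It consists of the word GGCAAC, often preceded by TGAA 4 bases upstream and followed by GC 3 bases downstream. The word was picked out after the sequences at the highest summits had been read, and the flanking letters were read off the copies at members ranked 1 to 100, so their frequency there is a description and was given no test. The stretches below show these letters at members of the loci at spen, scyl, Smr and gpp, the first from within a 5′ UTR and therefore shorter. Each is read 5′ to 3′ on the strand that spells the word, with dm6 positions, and capitals mark the word and those flanking letters that were present.
spen, 5′ UTR (2L:161953-161982, rank 1): tttcgTGAAatgaGGCAACgtcGCtttgtt
scyl locus, beside CR44713 (3L:11246409-11246468, rank 2): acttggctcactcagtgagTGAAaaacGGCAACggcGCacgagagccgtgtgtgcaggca
Smr locus, exon of Vinr (X:12750713-12750772, rank 3): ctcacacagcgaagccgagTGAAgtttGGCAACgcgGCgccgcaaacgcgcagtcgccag
gpp, intron 2 (3R:6426328-6426387, rank 7): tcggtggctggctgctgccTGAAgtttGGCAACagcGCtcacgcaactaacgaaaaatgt
Smr, intron 2 (X:12737139-12737198, rank 9): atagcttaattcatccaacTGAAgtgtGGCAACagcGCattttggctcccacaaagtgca
Smr, second locus (X:12717029-12717088, rank 10): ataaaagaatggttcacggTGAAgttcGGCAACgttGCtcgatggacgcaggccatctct
spen, intron 2, without the last letters (2L:166479-166538, rank 14): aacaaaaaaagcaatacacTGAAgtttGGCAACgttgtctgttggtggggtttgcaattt
gpp, first locus (3R:6411537-6411596, rank 20): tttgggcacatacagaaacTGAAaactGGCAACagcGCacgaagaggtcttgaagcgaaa
scyl locus, second member (3L:11256320-11256379, rank 22): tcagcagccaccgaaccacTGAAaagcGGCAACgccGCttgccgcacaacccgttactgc
gpp, intron 2, the word alone (3R:6428242-6428301, rank 23): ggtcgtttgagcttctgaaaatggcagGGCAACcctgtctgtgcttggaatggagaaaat

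The 4 highest-ranking members on 2L, 3L, 3R and X with no copy within 100 bp are shown for contrast, read on the plus strand and centred on the summit. Capitals here mark TGTTTAC or TGTTTGC, on either strand, which are words of the type bound by forkhead proteins.
ush (2L:481037-481096, rank 28): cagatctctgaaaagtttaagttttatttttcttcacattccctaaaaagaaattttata
cno (3R:5215498-5215557, rank 31): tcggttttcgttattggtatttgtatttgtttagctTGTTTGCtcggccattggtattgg
Trl (3L:14759471-14759530, rank 60): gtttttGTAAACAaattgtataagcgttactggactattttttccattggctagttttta
COX7AL2 (2L:2202387-2202446, rank 61): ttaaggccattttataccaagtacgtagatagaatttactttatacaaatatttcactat

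The strongest member lay in the 5′ UTR of spen, which encodes a large RNA-binding co-repressor that acts with chromatin-modifying complexes. Its summit at 2L:161995 had a score of 23642, the highest of the whole list, and it ranked 1 in replicate 1 and 1 in replicate 2. Its deposited scores were 8743 in replicate 1 and 14893 in replicate 2, each on its own scale. The locus ran from 159089 to 166529 on 2L, with 4 members, all inside spen, and 1 promoter summit with a score of 402.1. The other members of the locus scored 1471, 2583 and 4256, so the locus held a single dominant summit and 3 lower ones. Copies of GGCAAC lay within 50 bp of 3 of the 4 members, and 3 copies lay at the strongest one.

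The second-strongest member lay between genes on 3L, 521 bp from the start of the long non-coding RNA CR44713. It scored 17753 and ranked 2 in both replicates. Its locus spanned 15249 bp up to 3L:11261681 and took in scyl, which encodes an inhibitor of TOR signalling induced by hypoxia, and the non-coding genes CR44713 to CR44717. Of its 5 members, those with scores of 17753, 2974 and 2342 had the word and those with scores of 448.2 and 221.1 did not. All 5 were intergenic, and 3 promoter summits of the locus scored between 165.8 and 950.4.

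The locus with the most members lay on X between 12734040 and 12754523 and took in the 5′ part of Smr, CG4004 and the non-coding RNA Vinr. Smr encodes a co-repressor of nuclear receptors that recruits histone deacetylase. The locus had 9 members and 4 promoter summits over 20483 bp, the longest span of all loci. Its strongest member, in an exon of Vinr, scored 10681 and ranked 3 in each replicate. In intron 2 of Smr, 6 members scored 2040, 4423, 456.0, 5784, 403.2 and 762.5 in order along the arm. The word lay within 50 bp of the members scoring 2040, 4423, 5784 and 762.5 and was not found at those scoring 456.0 and 403.2. The highest promoter summit of the locus, 54 bp from a start of CG4004, scored 7779. A second Smr locus began 14696 bp away, with 3 members in intron 3 of Smr, and its strongest member scored 5610 and had the word, whereas the others, at 628.7 and 197.2, did not.

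Both loci in gpp lay in or next to its intron 2, which is 28950 bp long. The gene encodes the fly homologue of the histone methyltransferase DOT1L. The first locus, 3R:6401150-6416434, held 5 members, of which 2 lay in the neighbouring gene Dmtn, and its 2 strongest, at 3133 and 2585 in gpp, both had the word. The other locus, 3R:6424164-6432723, began 7730 bp further on and had no promoter summit. Its 6 members scored 382.3, 6119, 2840, 1568, 868.7 and 220.1 along the arm. The word was present at the 4 highest of them and was not found at the 2 lowest. Ranks in the 2 replicates were close for the strongest gpp member (9 and 8) and for the next (25 and 22).

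**Figure D1:**
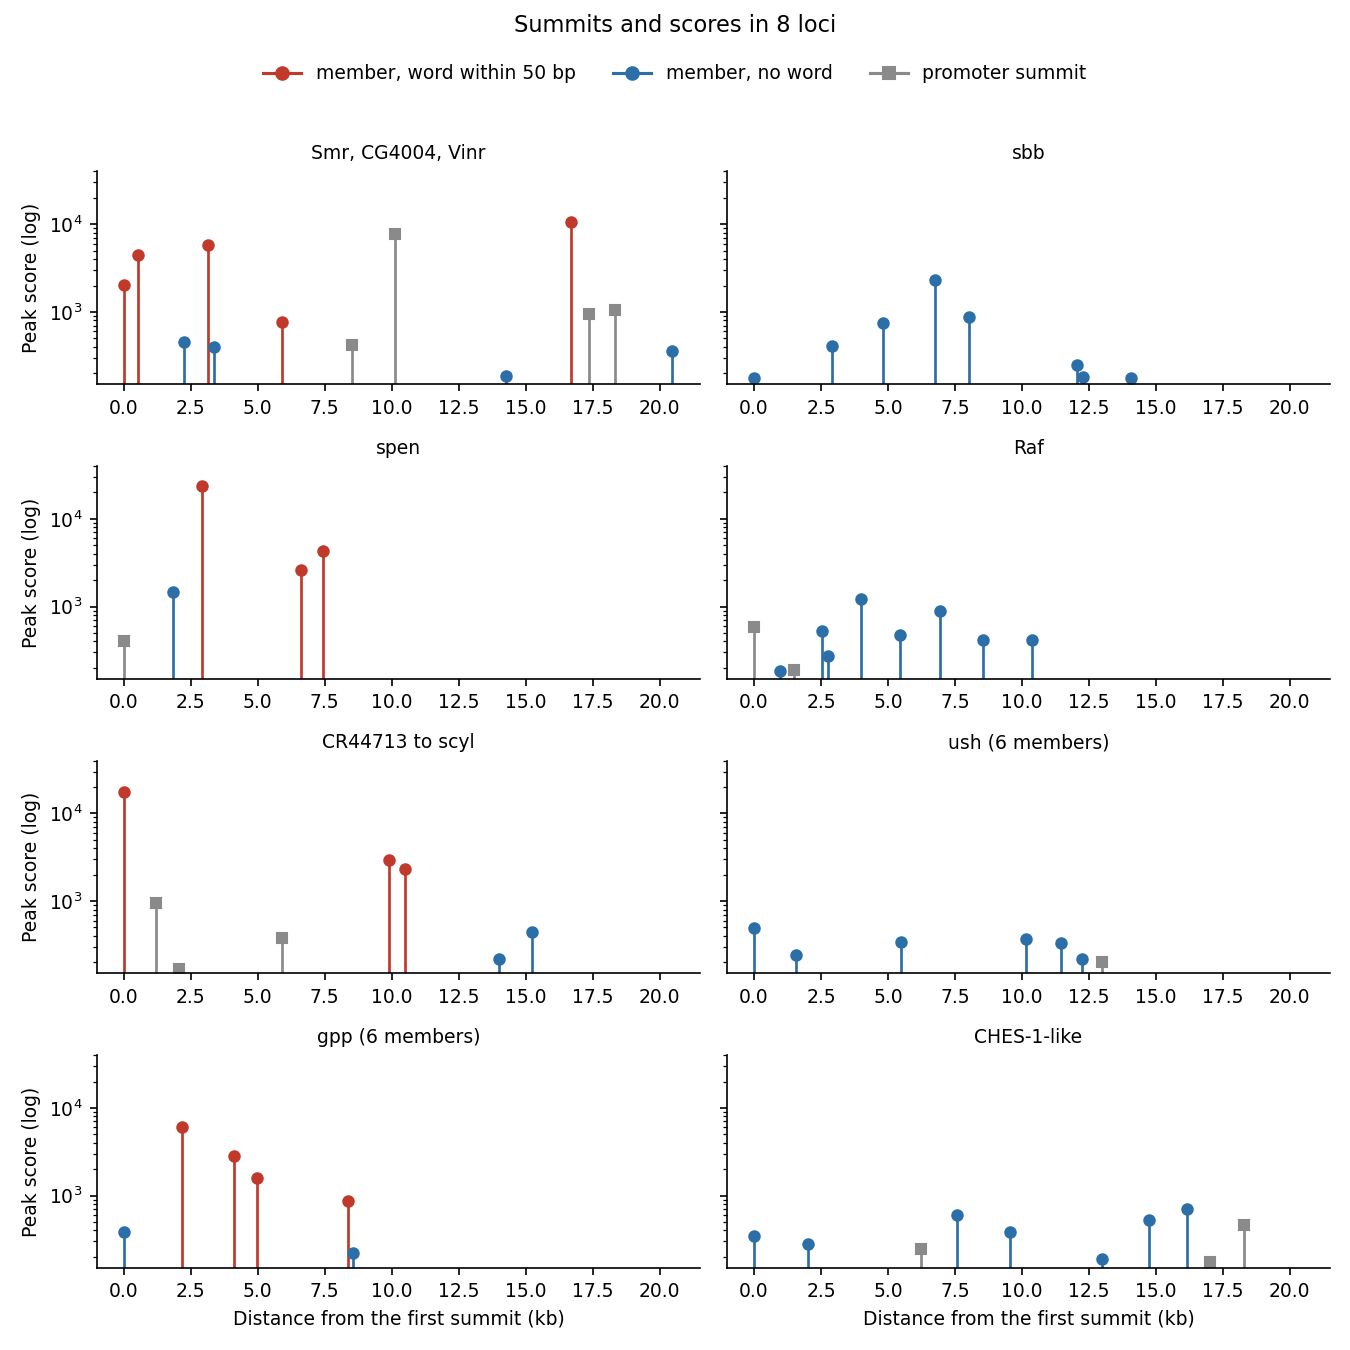
Position of each summit (kb from the first summit of the locus) against its score (log axis) in 8 loci. Circles are members, red with GGCAAC within 50 bp of the summit and blue without, and grey squares are promoter summits. In the left column (Smr, spen, scyl, gpp) the tallest members are red, with scores from 6119 to 23642. The loci in the right column (sbb, Raf, the ush locus of 6 members, CHES-1-like) have no member with the word and reach at most 2336. The loci are a selection, and the word was chosen from the highest summits. Loci not shown include lola (3356), the other ush locus (2587) and cno (2583), without the word. They also include loci with it at Tet (321.2) and gish (198.3).

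An intergenic locus on 2R between Su(z)2 and CG13323, from 13035335 to 13042004, completed the set of loci whose high-ranking members carried the word. Its members scored 2690, 4145, 6118 and 208.0 along the arm. The summits scoring 4145 and 6118 lay 266 bp apart, and within 100 bp the replicate 2 list had a summit only at the stronger of them. Of these 4 members, the one scoring 2690 lacked the word.

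Among members ranked 1 to 50, 17 of 22 had GGCAAC within 50 bp of the summit (77.3%, 95% Wilson interval 56.6 to 89.9). At ranks 51 to 100 it was 3 of 16 members, and at ranks 101 to 500 it was 7 of 69. At ranks 501 to 1000 it was 8 of 104, at ranks 1001 to 2000 it was 2 of 178, and at ranks 2001 to 4089 it was 16 of 333. Over all ranks the share was 7.34% of members, against 5.69% of the other summits away from promoters, 5.13% of promoter summits and 5.57% of windows placed every 5 kb along the genome. The share was thus high at the top of the ranking and near or below the genome level from rank 1001 on. It was also high in the other summits away from promoters at ranks 1 to 50 (8 of 11), so the word also occurred outside clustered peaks. The highest summits of both sets were searched when the word was chosen, so these high shares are a description. Of 17 promoter summits at these ranks, 3 had it.

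**Figure D2:**
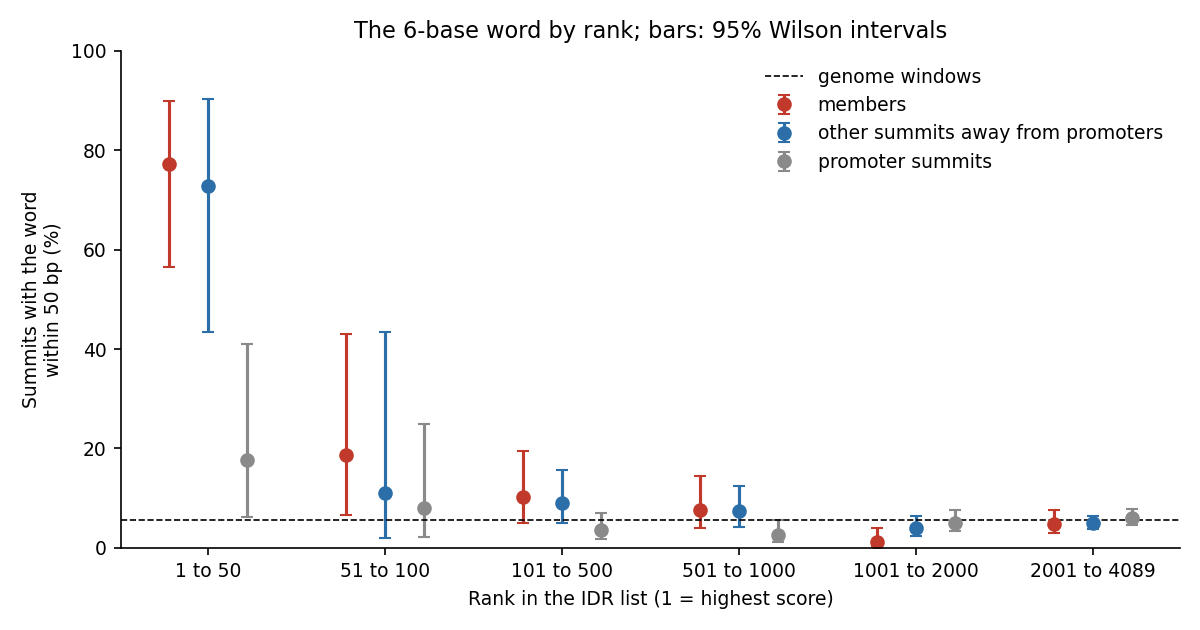
Share of summits with GGCAAC within 50 bp (percent, vertical axis) by rank in the list (horizontal axis) for members, other summits away from promoters and promoter summits, with 95% Wilson intervals. The dashed line is the share in windows along the genome, 5.57%. The members start at 77.3% at ranks 1 to 50 and come down to the line or below it from rank 1001 on, and the other summits away from promoters start at 72.7%.

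The spaced pattern, in which TGAA, 4 bases of any kind, GGCAAC, 3 bases of any kind and GC follow each other on either strand, was rarer and more concentrated at the top of the list. It lay within 50 bp of 14 of 22 members ranked 1 to 50 (63.6%, 43.0 to 80.3), of 1 of 16 members ranked 51 to 100 and of 4 of 684 members of lower rank. Among the other summits away from promoters it was found at 6 of 11 ranked 1 to 50, 1 of 9 ranked 51 to 100 and 6 of 1632 of lower rank. The flanking letters were read at members only, but those of the other summits ranked 1 to 100 had all been searched when the word was chosen. Some words ranked in that search were longer than GGCAAC and could take in flanking bases. The shares of the other summits at ranks 1 to 100 are therefore a description and no independent check. Candidates below the IDR list and away from promoters had it in 7 of 19863 cases, and windows along the genome in 1 of 26729. Of the 31 copies of the word at members ranked 1 to 100, 87.1% had G and 83.9% had C at the GC positions, while G of TGAA was present in 83.9% and its T in 64.5%.

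Searched over the 6 arms, the spaced pattern occurred 65 times. Of these occurrences, 35 lay within 100 bp of an IDR summit (53.8%, 41.9 to 65.4), and these stretches cover 0.614% of the arms. Members accounted for 21 of the 35, and 14 lay at summits that are not members. The remaining 30 occurrences lay further than 100 bp from every IDR summit, and 2 of them were inside a locus. The flanking letters were read at members ranked 1 to 100, so the 21 are not independent of the pattern. The word in it was chosen with the highest summits that are not members also searched, so the 14 are not fully independent either.

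The word lay close to the summit in members of high rank. In the 23 members ranked 1 to 100 with a copy within 100 bp, the nearest copy was a median of 18.5 bp from the summit, and in 20 of them its centre was within 50 bp. In the 55 members of lower rank with a copy the median distance was 43.5 bp, and 33 had it within 50 bp. Of members ranked 1 to 100, 7 had more than 1 copy within 100 bp.

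The 17 members of ranks 1 to 50 with the word fell in 7 loci, those at spen, scyl, Smr (2), gpp (2) and between Su(z)2 and CG13323. These loci hold 36 members. The 21 with the word had a median score of 3133, and the 15 without it had a median of 382.3. These loci were picked for a high-ranking member with the word, and the word was picked from the highest summits, so that difference follows from the choice. In the other 248 loci, 32 of 686 members had the word (4.66%, 3.32 to 6.51), the highest score was 3356 and the median was 278.5, values that the same choice also sets apart.

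Forkhead-type words were frequent at members of high rank that lacked GGCAAC; whether this differs from members with it was not tested. The forkhead-type words searched were TATTTAC, with the word TGTTTAC as a variant of it and the word TGTTTGC as another, each on either strand. At least 1 of the 3 lay within 50 bp of 9 of the 18 members ranked 1 to 100 that lacked GGCAAC, and of 2 of the 20 that had it. Over all members the share was 20.1% (17.3 to 23.2), against 21.9% of the other summits away from promoters, 13.2% of promoter summits, 11.5% of candidates below the list and 7.42% of genome windows. The same words with their letters in reverse order, which have the same base composition, were found at 12.5% of members and 7.31% of genome windows. The members were poor in G and C, with a median of 33.7% within 50 bp, equal to 33.7% in the other summits away from promoters and below the 42.6% of genome windows. What part base composition has in the share of A- and T-rich words was not tested.

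Among the other words searched, GAGAG, the core of GAGA factor sites, lay at 10.2% of members and 11.4% of genome windows, and CAGCTG, an E-box, at 2.49% of members and 4.38% of genome windows. Both contrasts depended on the width of the window, as given below. CAGGTAG, bound by the early embryonic activator Zelda, was found at 0.554% of members and 0.546% of genome windows. TATCGATA, the DNA replication-related element common at housekeeping promoters, was at 0.139% of members, 0.0605% of other summits away from promoters and 2.33% of promoter summits. CACACA was at 10.7% of members, 8.66% of other summits away from promoters and 7.97% of genome windows, and a run of 6 T at 26.2%, 25.1% and 18.0% of the same sets. These are matches of letters in a window, and no factor was measured.

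Beyond the few very strong loci, most loci were short groups of moderate summits. Of the 255 loci, 35 had 1 member, 75 had 2 and 90 had 3, and the 55 with at least 4 held 267 members. A locus with fewer than 3 members was completed by promoter summits, and 172 loci had at least 1 promoter summit. The strongest summit was a member in 187 of the 255 loci. That share is close to the share of members among all summits of the loci (722 members and 275 promoter summits). The span had a median of 5367 bp (quartiles 3757 and 6987). Neighbouring summits lay a median of 1720.5 bp apart (quartiles 975 and 3002). Of these 742 distances, 56 were under 500 bp, and the smallest was 199 bp. Scores of members had a median of 284.3 with a range from 163.0 to 23642, against medians of 241.9 for the other summits away from promoters and 275.9 for promoter summits. Within the 145 loci with at least 3 members, the highest member scored a median of 2.25 times the lowest, and the ratio passed 10 in 11 loci and reached 80.3.

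**Figure D3:**
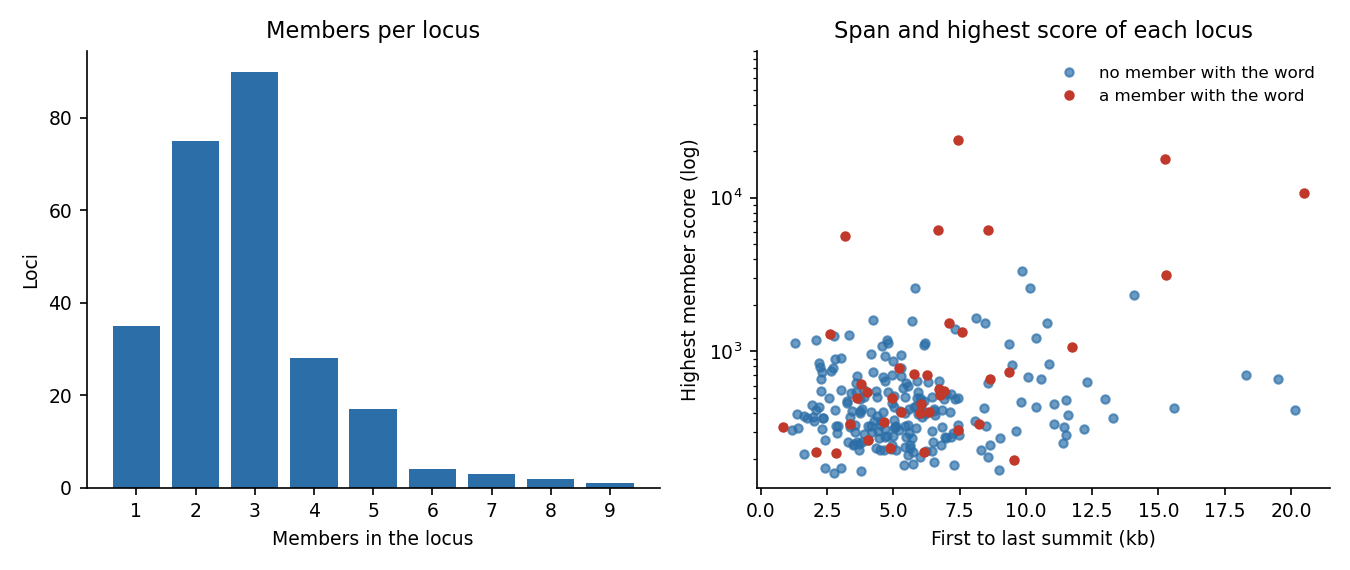
Left, number of loci (vertical axis) by number of members per locus (horizontal axis). Right, span from first to last summit (kb) against the highest member score (log axis), 1 point per locus, red where a member has GGCAAC within 50 bp. Loci of 3 members are the most common at 90, and every point above that of lola (3356) is red.

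Counted by overlap of intervals, the share of members found in both replicates was somewhat above that of other summits. A member was counted as found when its interval overlapped one of the 4089 highest candidates of each replicate. This held for 587 of 722 members (81.3%, 78.3 to 84.0), against 74.3% (72.2 to 76.4) of the other summits away from promoters and 76.6% (74.6 to 78.6) of promoter summits. Over all 4089 peaks the share was 76.5%. Since the IDR list was made from these same replicates, this is no independent check. Members were chosen for nearby peaks and scored higher (median 284.3) than the other summits away from promoters (median 241.9). What part either has in the difference was not tested. In 142 loci every member was found in both replicates, and in 7 loci no member was. The chaining was repeated on the 4089 highest candidates of each replicate alone: replicate 1 gave 245 loci and replicate 2 gave 275. Of the 255 loci, 194 (76.1%) met a locus of replicate 1 and 219 (85.9%) met a locus of replicate 2. In the other direction, 79.6% of the replicate 1 loci and 80.0% of the replicate 2 loci met one of the 255.

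**Figure D4:**
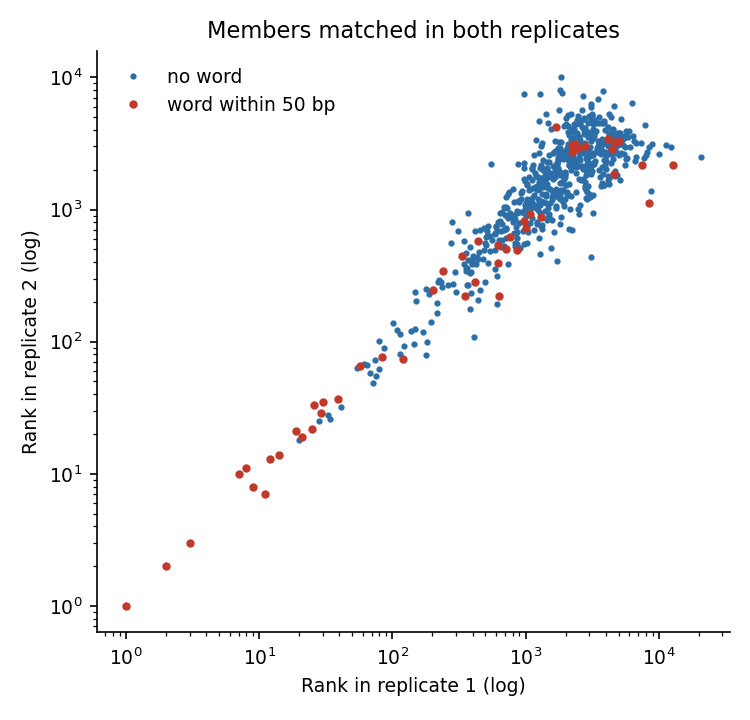
Rank of each of the 686 members with a summit within 100 bp in both replicate lists, replicate 1 on the horizontal and replicate 2 on the vertical axis (both log). Red points have GGCAAC within 50 bp of the summit; the spen member is at rank 1 in both, and the points spread further apart at lower ranks.

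Members lay mainly in introns. Introns held 502 of 722 members (69.5%, 66.1 to 72.8), against 69.0% (66.7 to 71.2) of the other summits away from promoters and 59.1% (58.4 to 59.8) of candidates below the list. Intergenic sequence held 24.7% of members, 26.6% of the other summits and 30.3% of the candidates below. No member lay in a coding exon, which allows a share of up to 0.416% by 3 counts, or 0.529% by the Wilson interval. Coding exons held 0.726% (0.416 to 1.27) of the other summits and 4.36% of the candidates below. Non-coding exons held 2.77% of members and 1.09% of the other summits, 5′ UTRs 1.94% and 1.21%, and 3′ UTRs 1.11% and 1.39%. Of intronic members in protein-coding genes, 47.0% lay in intron 1, the same share as in the other summits (47.0%). Lengths were taken once per summit, so an intron or gene with several summits counted several times. The median intron length was 14076.5 bp over members and 12262 bp over the other summits. The median host gene length was 31694 bp over members and 29402 bp over the other summits. The median distance from a member to the nearest TSS was 2400.5 bp, against 2950.0 bp. The shares in introns and intergenic sequence were close in members and other summits. The share in non-coding exons was higher in members. Of the 20 members there, several lay in a single gene at the bantam locus. The share in coding exons was lower in members, with overlapping Wilson intervals. None of these shares was tested, because neighbouring summits are not independent.

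**Figure D5:**
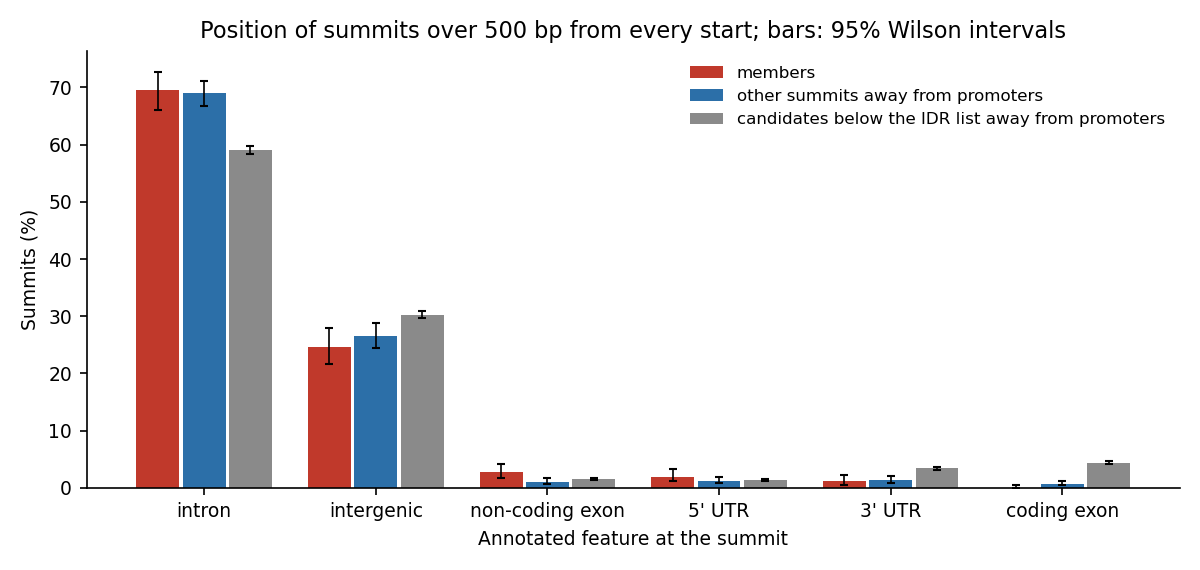
Share of summits (percent, vertical axis) in each annotated feature (horizontal axis) for members, other summits away from promoters and candidates below the IDR list, with 95% Wilson intervals. Introns hold 69.5% of members and 59.1% of candidates below the list, and coding exons hold none of the members.

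Each large arm held members: 151 of 813 peaks on 2L, 119 of 709 on 2R, 162 of 896 on 3L, 153 of 964 on 3R and 137 of 690 on X. The share ran from 15.9% on 3R to 19.9% on X. Chromosome 4 held 17 peaks and no locus. Loci lay apart from each other, with a median distance of 109 kb to the nearest other locus, and 41 had another within 20 kb. CG3407 itself (2L:3810801-3813410) held no member, and the nearest locus, at bowl, ended 21317 bp away.

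By host gene, 165 loci with 436 members had every member inside the same protein-coding gene, 54 loci with 158 members had none in a protein-coding gene, and 36 loci with 128 members were mixed. In all, 525 members lay inside 215 protein-coding genes. In 101 loci at least 3 members shared 1 gene, and 96 genes were so placed. These genes were sorted by textbook role after the loci had been seen, so the sorting describes them and supports no statement about enrichment.

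Co-repressors and chromatin proteins hosted 15 of the 101 loci, in 12 genes, with a median highest score of 1255 against 434.8 over all 101. The group takes in the spen, Smr and gpp loci and was sorted after the loci had been seen, so these medians are a description. Next after spen, Smr and gpp came sbb, which encodes the co-repressor also called Brakeless. All 8 members of its locus lay in intron 2, which is 65649 bp long. Their scores in order along 2R were 178.5, 408.4, 756.5, 2336, 887.0, 246.1, 180.8 and 175.3 and were highest in the middle of the group. The strongest ranked 41 in replicate 1 and 32 in replicate 2, and no member had the word. Tlk, a kinase of chromatin assembly, had 5 members with a highest score of 1532, all in intron 2. Gug, the Atrophin co-repressor, reached 1255, simj, a Mi-2 complex subunit, 945.2, Kdm2, a histone demethylase, 889.0, and the histone kinase gene JIL-1 463.2. Tet, the homologue of methylcytosine dioxygenases, had 2 loci that reached 321.2 and 267.0. Of these 15 loci, 6 had a member with the word: those of spen, Smr and gpp, and 1 of the Tet loci.

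DNA-binding transcription factors and their cofactors hosted 18 loci with a median highest score of 498.5. At lola, a BTB zinc finger gene of axon guidance, 1 of 4 members scored 3356 (rank 20 in replicate 1 and 18 in replicate 2), the highest member outside the 7 loci above, and the others scored 203.9, 351.8 and 178.4. The zinc finger cofactor gene ush, an inhibitor of the GATA factor Pannier, had 10 members in 2 loci. The locus in its 5′ part had members at 2587, 233.0, 1137 and 203.2, and the locus further inside the gene, in intron 2, had 6 members between 219.2 and 493.4, all found in both replicates. CHES-1-like, a forkhead gene, held 7 members over 18310 bp in its intron 1, with scores from 190.5 to 703.8. Trl, which encodes GAGA factor, reached 1595 with 3 members. NFAT reached 1180 with 3 members and the nuclear receptor gene Hr4 1076 with 4. The Mad-like repressor gene Mnt had 5 members, none above 288.5, and shn, a zinc finger partner of BMP signalling, 4 members up to 551.9. Among the 18 loci, only those at Hr4 and tai had a member with the word.

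Signalling genes hosted 18 loci with a median highest score of 379.8. Raf, the MAP kinase kinase kinase of receptor tyrosine kinase pathways, had 8 members on X, of which 7 lay inside the gene, with scores of 184.6, 525.9, 270.7, 1226, 479.2, 877.9, 415.0 and 412.5 along the arm. The strongest lay in the middle of the group and none had the word. S (Star), needed for the export of epidermal growth factor ligands, had 5 members, with 675.9, 186.6, 1536, 492.2 and 707.7 along the arm, and the insulin receptor gene InR reached 1399. Other hosts were Dad, an inhibitory Smad (highest score 497.5), nkd, a Wnt antagonist (433.4), sog, a BMP antagonist (309.2), Mkp3, a MAP kinase phosphatase (267.8), and the kinase gene gish (198.3). At gish none of the 3 members was found in both replicates.

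Cell-surface, adhesion and polarity genes hosted 10 loci with a median highest score of 351.6. The strongest was at cno, a linker of adherens junctions to actin, where 1 of 3 members scored 2583 and the others 280.6 and 172.8. The Netrin receptor gene fra had 5 members in intron 1, with a highest score of 814.7, and kirre, a myoblast fusion receptor gene, 5 members up to 321.7. Cytoskeletal and small GTPase regulators hosted 9 loci with a median of 500.3, led by spri at 1343, where 2 of 3 members had the word. Genes of RNA-binding and translation proteins hosted 6 loci, all between 316.9 and 416.3. The remaining 25 loci were in genes left ungrouped, with highest scores from 245.5 to 1533. Among them CG1677 held 9 members in 2 loci of a single 73902 bp intron.

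Loci with no member in a protein-coding gene lay beside developmental regulators in several cases. The stretch of bantam, a growth-promoting microRNA, had 6 members at 3L:633746-644320, of which 5 were in exons of the non-coding gene CR43334. Their scores along the arm were 658.9, 630.5, 299.5, 433.9, 243.9 and 532.4, and all 6 were found in both replicates. A further locus of 4 members, up to 490.7, began at 3L:611820. Upstream of chinmo, a BTB zinc finger gene of temporal identity, 5 members scored 815.4, 805.2, 826.6, 646.9 and 191.1 along the arm. Between CG13896 and emc, an inhibitor of bHLH factors, 4 members reached 1134, and beside noc, a zinc finger gene, 4 reached 1084. Beside robo2, a Slit receptor gene, 4 intergenic members reached 1640. In the Enhancer of split complex, the Notch target genes, 5 members scored from 166.5 to 432.1 and stood among 4 promoter summits.

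Further loci with at least 4 members covered a wide range of scores. CG45088 and CG6191, which overlap, shared a locus of 7 members up to 634.5, and the drongo locus, which runs past mir-375, had 7 members up to 416.3. The bowl locus had 6 members, 4 of them in the zinc finger gene bowl and the highest, 660.7, in bark. Members reached 1574 at COX7AL2 (5), 1533 at CG12912 and Hr3 (4), 738.2 around Rh5 (5), 628.2 on the side of sty (5), 580.8 and 740.9 at CG1677 (5 and 4), 555.2 between CG44362 and CG7560 (5), 542.6 at Pits (4) and 507.6 at CG13898 (4). They reached 489.7 at PRAS40 (4), 487.9 between CG7320 and CheA75a (4), 487.2 at Dys (4), 466.3 on the side of 18w (5), 426.8 between NijA and CG43245 (4), 392.2 at Tsp96F (5), 388.3 at msn (5) and 387.3 at Krn (4). The lowest were 336.2 at ckn (4), 335.5 at Pdp1 (4), 321.7 on the side of Myc (4), 314.5 at Wnt4 (4), 307.4 at Ptp10D (4), 304.8 at loco (4), 302.4 at RapGAP1 (4), 288.5 at crb (4) and 273.3 at Mmp2 (4). Numbers in parentheses are members of the locus.

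The limits of the choice lay within a continuous range. The members nearest to a TSS were 501 bp away at CrebA, 502 bp at bark and 503 bp at lola and loco, and summits of kept chains at 500 bp from a start at SREBP and CG10543 were not members. The largest gap that was chained was 4978 bp and the smallest that was not was 5005 bp. Chains of 2 summits, 528 in number, were not kept.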

How the data were processed

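The deposited files are interval lists on the dm6 assembly, per the file headers. The authors made a list of 30000 candidates for each of the 2 replicates and for both together, and from these a shorter list of 4089, by the irreproducible discovery rate (IDR), which compares the order of peaks in the replicates. The deposited score of each peak is the caller's own value, on a scale that differs between lists, so levels were set side by side within 1 list. The deposited −log10 q values were read but not used for ranking, because many peaks share the highest value. Software for alignment and peak calling, and the IDR limit, are not stated in the labels or headers. The fragments were sheared by sonication, per the labels. A count of 0 was taken to allow up to 3 counts. Read totals were not analysed, so depth is unknown and no value rests on it.

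Summits were chained and annotated with Python 3.11.15, pandas 2.3.3 and scipy 1.17.1, using Ensembl release 115 genes without transposable elements and RefSeq sequence of the same assembly. Where annotations overlapped at a summit, coding exons took precedence over UTRs, UTRs over other exons, and exons over introns. Words were sought in either orientation up to 50 bp from the summit, and sequence comparisons used windows every 5 kb along the 6 arms. A member was matched to a replicate summit within 100 bp. Intervals given with shares are 95% Wilson intervals and reflect counting error alone. No test was made, because the list was built from both replicates and neighbouring summits are not independent. The steps were tested on simulated summits and sequences.

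Loci were named by the genes they meet, or by the nearest genes on each side. Every locus with at least 4 members, the 10 with the highest-scoring member and those with at least 3 members in 1 gene were to be described, the last by group. The members and lists were chosen with earlier results of these data known. The gene roles were assigned after the loci were seen. GGCAAC was chosen after words of 7 to 12 bases had been ranked at the highest summits of the list and words of 6 to 8 bases at the 100 highest summits that are not members, where other words ranked above it. The spaced pattern and the reversed words were added later.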

Additional observations from a re-analysis of the deposited data

How the results depend on the processing

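The number of loci and members follows the chaining limits. With a gap of 2.5 kb there were 138 loci and 362 members, and with 10 kb there were 401 loci and 1212 members. The higher-scoring 50% of the list gave 68 loci and 182 members, and at least 4 summits per chain gave 114 loci and 410 members. The median spacing was 1184 bp with a gap of 2.5 kb, 2837 bp with 10 kb and 1799 bp with a TSS distance of 1000 bp, and 1624 to 1695 bp with the candidates of a single replicate. The share in introns was 64.8% in the higher-scoring 50%. The share found in both replicates was 78.2% with a gap of 10 kb and 98.9% in the higher-scoring 50%. It was 75.8% when a candidate summit within 100 bp was required, a rule under which the other summits were not recounted. The share could not be computed from a single replicate. Median GC was 36.3% within 100 bp and 33.7 to 34.7% with single replicates. In the higher-scoring 50% GAGAG was at 13.7% of members and TATCGATA at 0 of them. Within 100 bp the shares were 23.7% for GAGAG, 13.7% for TATTTAC, 9.14% for TGTTTAC, 11.4% for TGTTTGC, 23.0% for CACACA, 44.6% for a run of 6 T and 8.03% for CAGCTG. The other 70 recomputed values stayed close to those reported, within 1.5 times for counts, within the interval for shares and within the spread of single replicates for medians. The share of members ranked 1 to 50 with GGCAAC, whose alternatives were added after seeing the data, stayed between 70.6% (without the Smr loci) and 81.8% (gap of 2.5 kb). No paired analysis was possible because the 2 replicates form a single group.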

Other observations

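Most loci held candidates below the IDR list. Of 25911 such candidates, 715 fell between the first and last summit of a locus. They lay in 220 of the 255 loci, with a median of 2 per locus. The loci together span 1.51 Mb, and whether candidates are denser inside them was not tested.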
